A study of Rattus norvegicus with 12 samples.

Results

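A set of 1428 regions of the rat genome carried both H3K23ac and H3K27ac in every library of those marks and carried no H4K5ac in any. They were selected on peak presence and length: the peaks of 12 lists were merged where they shared at least 1 bp, and a merged region was kept when it was under 3000 bp, had a peak in all 4 H3K23ac and all 4 H3K27ac libraries, and had none in the 4 H4K5ac libraries. The merging gave 23333 regions, so the set is 6.12% of them. The libraries are CUT&Tag profiles of primary vascular smooth muscle cells (the contractile cells of the arterial wall) from Rattus norvegicus. Each mark was profiled in cells labelled NC and in cells labelled SIANK, with 2 libraries each. The sources used here spell out neither label, and name no strain, age, agent or time. No label ties the 2 libraries of a group to separate cultures or animals. The permutation p-values below therefore reflect library-to-library spread alone, and that spread may be purely technical.

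CUT&Tag tethers a transposase to an antibody against a chromatin mark, so that DNA next to the mark is cut and tagged for sequencing. Acetylation of lysines in the histone tails weakens the contact of histone and DNA and offers docking sites to bromodomain proteins. H3K27ac, written by the acetyltransferases CBP and EP300, marks active promoters and enhancers. H3K23ac lies on the same tail and is written by MOZ and MORF among others, while H4K5ac sits on the tail of another histone and also marks newly made H4 before it is assembled into chromatin. In vascular smooth muscle, acetylated promoters and enhancers accompany the contractile gene programme and its loss when these cells change phenotype.

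The lists give positions and lengths in base pairs and no signal or read count, so the depth behind a peak is unknown. The genome build is not given in the sources used here, and 47 of the 1428 regions lay beyond the last gene of GRCr8, the only annotation at hand. Regions are therefore named by position as deposited, without genes or sequence, and the cell type could not be checked against its marker genes. The 8 H3 lists held from 2644 peaks (H3K27ac NC 1) to 17141 (H3K23ac SIANK 2) and the 4 H4K5ac lists from 100 to 1711, so that few regions could carry H4K5ac at all.

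Most regions shared by all 8 H3 lists fell into the set. H3K23ac was present in all 4 of its libraries at 7396 merged regions and H3K27ac in all 4 of its own at 2216. Both held at 1840 regions. Of these, 1655 had no H4K5ac peak and 1428 were also under 3000 bp, which is 77.6% of the 1840. The others were 227 regions of 3000 bp or more without H4K5ac, 159 shorter regions with it, and the longer regions with it.

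The list of H3K27ac NC 1 set the size of the set. Its peaks in the 1428 regions made up 54.7% of that list, against 30.0% of the H3K27ac SIANK 1 list. The share was 10.6% of H3K27ac NC 2 and 9.59% of H3K27ac SIANK 2, and it ran from 8.59% to 14.0% of the H3K23ac lists. Among regions under 3000 bp without H4K5ac, 1317 had a peak in 7 of the 8 libraries, and in 1052 of these (79.9%) H3K27ac NC 1 was the library without one. H3K23ac NC 2 was the missing library at 92, H3K23ac NC 1 at 76, H3K23ac SIANK 1 at 54 and H3K27ac SIANK 1 at 33. H3K23ac SIANK 2 was never the missing one. With H3K27ac NC 1 left out of the rule, 2481 regions qualified, and leaving out any other of the 8 gave between 1448 and 1524.

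**Figure D1:**
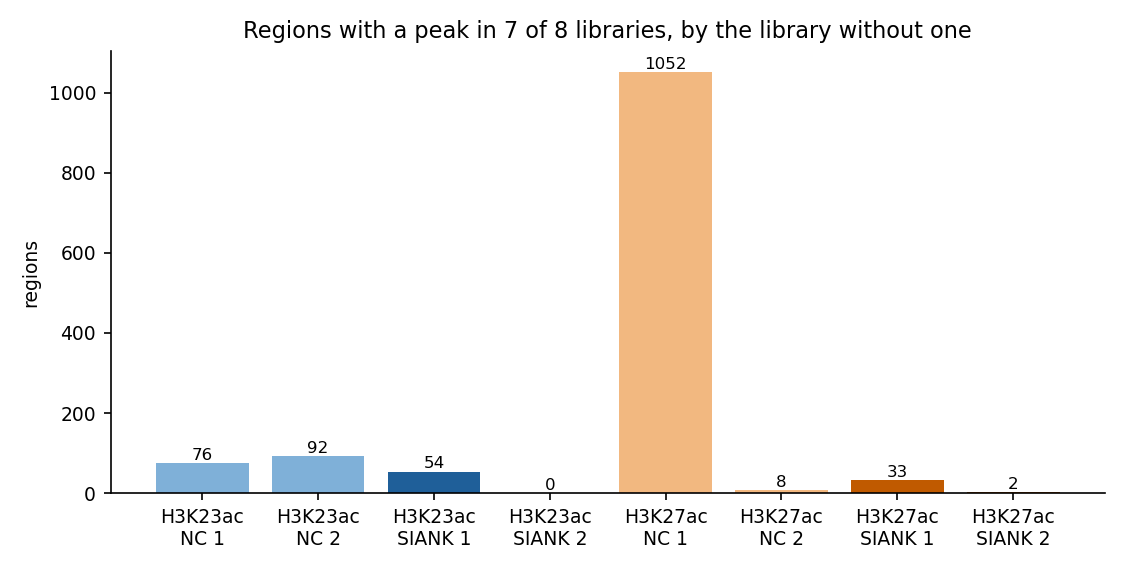
Number of merged regions under 3000 bp and without H4K5ac that had a peak in 7 of the 8 H3K23ac and H3K27ac libraries, by the library without a peak (x axis). The bar of H3K27ac NC 1 stands at 1052, and the other 7 bars lie between 0 and 92.

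The merged regions ranged from 535 to 2988 bp, with a median of 1715.5 bp and quartiles of 1339.75 and 2170.25 bp. There were 111 regions under 1000 bp and 176 of 2500 bp or more. Chromosome 18 held the longest, 2988 bp at 80938522 to 80941509, and chromosome 17 the next, 2980 bp at 42267467 to 42270446. Just beyond the limit were a pair of 3020 bp regions that otherwise met the rule, at 120579280 to 120582299 on chromosome 7 and at 7325068 to 7328087 on chromosome 14.

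Within a region the peaks were not of equal length in the 8 libraries. The median covered length, the summed length of a library's peaks in a region, was 1094 bp in H3K23ac NC 1, 1059.5 bp in NC 2, 1153 bp in SIANK 1 and 1474.5 bp in SIANK 2. For H3K27ac the same medians were 651 bp (NC 1), 1277 bp (NC 2), 913 bp (SIANK 1) and 1302 bp (SIANK 2). The number 1 libraries of H3K27ac thus had the shortest peaks, and its number 2 libraries lay above 3 of the 4 H3K23ac libraries. H3K27ac NC 1 gave the shortest cover of the 8 at 831 regions (58.2%), and H3K23ac SIANK 2 the longest at 593 (41.5%). The longest cover was 2.58 times the shortest in the median region, and 2.11 times without H3K27ac NC 1.

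**Figure D2:**
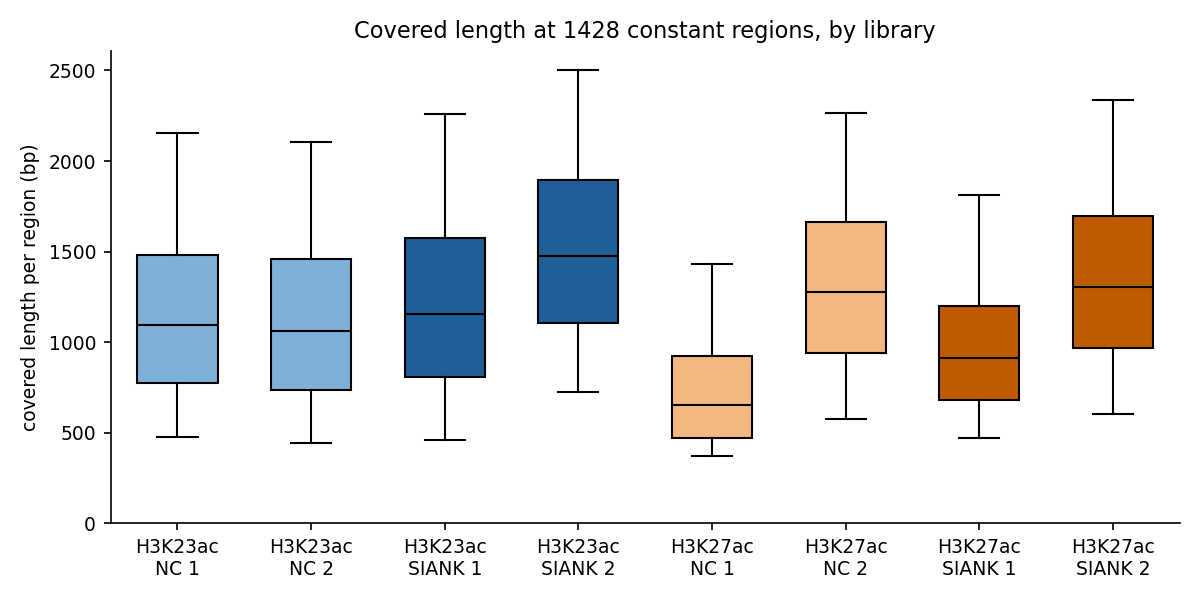
Covered length per region in base pairs (y axis) in each of the 8 libraries (x axis) at the 1428 regions; boxes span the quartiles, the line is the median and whiskers reach the lowest and highest 5% of regions. The medians run from 651 bp in H3K27ac NC 1 to 1474.5 bp in H3K23ac SIANK 2, and the boxes of both H3K27ac number 1 libraries sit lowest.

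Averaged over libraries, the marks did not differ beyond the spread between libraries. The mean log2 covered length was 0.21 higher for H3K23ac than for H3K27ac (SE 0.24, 1.16-fold, 4 libraries each). An exact two-sided permutation of the mark labels gave p = 0.457. Without 1 library at a time the difference ran from 0.03 to 0.33, the former without H3K27ac NC 1.

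By their rank in the list, peaks of these regions were among the longer ones in 7 of the 8 libraries. The median within-library percentile of the longest peak was 73.8 and 68.8 in H3K23ac NC 1 and 2 and 76.1 and 80.2 in SIANK 1 and 2. For H3K27ac it was 76.9 in NC 2, 69.5 in SIANK 1 and 77.7 in SIANK 2, but 55.0 in NC 1, a list of which these peaks make up 54.7%. The rule bears on length through its limit and through presence in every list, so these ranks describe the set and test nothing.

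The cover of all 8 libraries met in a common core in nearly every region. At 1369 of the 1428 regions at least 1 base was covered in all 8, and at 1341 of these the shared bases formed 1 unbroken stretch. The core had a median of 480 bp, with quartiles of 366 and 668 bp, and took up 30.2% of the median region. It lay centrally: in 92.8% of regions with a core, its middle fell into the inner 50% of the region. At 59 regions no base was shared by all 8. The core was 785.5 bp for the 4 H3K23ac libraries alone and 581 bp for the 4 of H3K27ac, and without H3K27ac NC 1 the core of the other 7 was 606.5 bp.

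Cover fell off from the core at a different pace in each library. At 500 bp on either side of the core's centre, 72.8% of regions were still covered in H3K23ac SIANK 2, against 51.5%, 50.6% and 54.3% in H3K23ac NC 1, NC 2 and SIANK 1. For H3K27ac the value was 62.0% in NC 2 and 64.4% in SIANK 2, but 21.2% in NC 1 and 39.1% in SIANK 1. The order was the same at 750 bp for the libraries at both ends, with 41.7% in H3K23ac SIANK 2 and 6.14% in H3K27ac NC 1. The H3K27ac NC 1 peaks lay wholly within those of NC 2 at 1004 regions (70.3%) and enclosed them at 55, and those of SIANK 1 lay within those of SIANK 2 at 840 (58.8%) and enclosed them at 133. For H3K23ac, SIANK 1 lay within SIANK 2 at 726 regions (50.8%) and enclosed it at 155. H3K23ac NC went the other way, with NC 2 within NC 1 at 469 regions (32.8%) and NC 1 within NC 2 at 385.

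**Figure D3:**
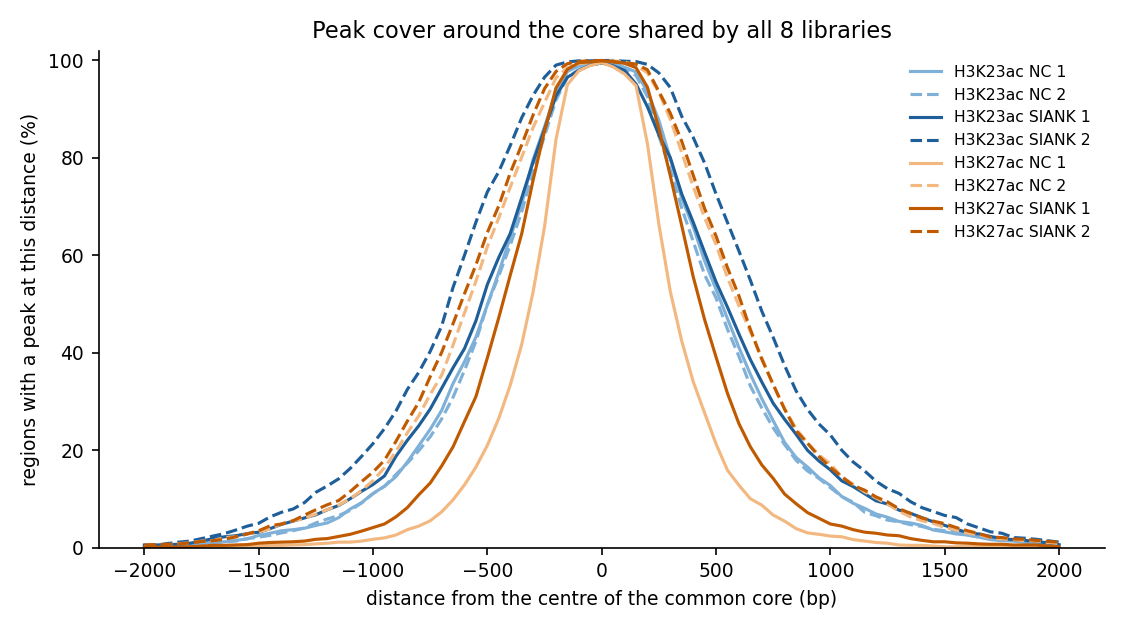
Percent of the 1369 regions with a common core (y axis) that have a peak at a given distance in base pairs from the core's centre (x axis), one line per library, solid for number 1 and dashed for number 2. H3K27ac NC 1 is the narrowest line, at 21.2% at 500 bp, and H3K23ac SIANK 2 the widest, at 72.8%.

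Over the 4 libraries of each mark, both marks occupied mostly the same bases. The rule favours this, since peaks were merged by overlap and both marks were required. Taking the union of the 4 libraries of a mark, 83.7% of the summed length of the regions was covered by both marks, 11.4% by H3K23ac alone and 4.93% by H3K27ac alone. Single H3K23ac libraries covered a median of 65.7% (NC 2) to 89.6% (SIANK 2) of a region. For H3K27ac this ran from 41.7% (NC 1) to 80.4% (SIANK 2). The H3K23ac union was the longer one at 959 regions and the H3K27ac union at 459. The centres of H3K23ac and H3K27ac cover were a median of 94.3 and 81.5 bp apart between the number 2 libraries of NC and SIANK, and 153 and 161 bp apart between the number 1 libraries. Which mark enclosed the other depended on the libraries. H3K27ac lay within H3K23ac at 57.5% of regions for NC 1 and at 11.2% for NC 2, where H3K23ac lay within H3K27ac at 49.4%.

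Which regions had long peaks also differed by library. Over the 1428 regions, which share the length limit and are no independent replicates, the rank correlation of covered length (Spearman's rho, a description without a test) ran from 0.59 to 0.71 between the H3K23ac libraries. The H3K27ac NC 2 and SIANK 2 libraries resembled each other (0.80) and the H3K23ac libraries (0.67 to 0.81). The H3K27ac NC 1 and SIANK 1 libraries resembled each other (0.68), but correlated with H3K27ac NC 2 and SIANK 2 at 0.21 to 0.42 and with the H3K23ac libraries at 0.19 to 0.42. In these regions, peak length in the number 2 libraries of H3K27ac thus ranked more like that of H3K23ac than like that of the number 1 libraries of H3K27ac itself. The list lengths moved with this split, with 2644 and 4823 peaks in number 1 and 14034 and 15413 in number 2, and their part in it was not tested.

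Most regions were 1 peak in every library. At 1186 regions (83.1%) each of the 8 libraries had exactly 1 peak, and 242 were split into several peaks in at least 1 library. Splits occurred in H3K23ac alone at 134 regions, in H3K27ac alone at 42 and in both marks at 66. H3K23ac SIANK 1 had the most split regions (88) and H3K27ac SIANK 1 the fewest (17). The gap between split peaks had a median of 460.5 bp. Split regions were longer, with a median of 2375.5 bp against 1601 bp for unsplit ones.

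The regions that changed least from library to library included both long and short ones. On chromosome 1 from 148440950 to 148443704, H3K23ac covered 2564, 2686, 2701 and 2755 bp in NC 1, NC 2, SIANK 1 and SIANK 2, and H3K27ac covered 2382, 2708, 2364 and 2736 bp. It was both the least variable region (SD of log2 covered length 0.09 over 8 libraries) and the one with the longest core, 2320 bp or 84.2% of its 2755 bp. The next longest core, 1739 bp, was also on chromosome 1, from 247687659 to 247689999, where H3K23ac covered 1896, 1885, 1865 and 2243 bp and H3K27ac 1898, 2131, 2115 and 2074 bp. The libraries lay close together in both regions. H3K27ac NC 1 and SIANK 1 were still the shortest in the first, and H3K23ac SIANK 2 was the longest in both. The second least variable region, on chromosome 20 from 56196287 to 56197314, was only 1028 bp long, and its cover stayed between 813 and 991 bp in all 8 libraries.

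The shortest regions left little room for the libraries to differ, since no peak cover in the set was under 311 bp. The shortest of all, on chromosome 1 from 182140259 to 182140793 (535 bp), had H3K23ac cover of 368, 416, 408 and 483 bp and H3K27ac cover of 432, 503, 482 and 494 bp in NC 1, NC 2, SIANK 1 and SIANK 2. Here H3K27ac NC 1 was longer than 3 of the H3K23ac libraries. The shortest 5 had ratios of longest to shortest cover between 1.29 and 1.77. In the longest 5, where length limits it less, that ratio ran from 2.30 to 8.69, the latter on chromosome 3 from 162552065 to 162555043. There H3K23ac covered 2134, 2294, 2979 and 2461 bp, while H3K27ac covered 343 bp in NC 1 and 2247, 1642 and 2317 bp in NC 2, SIANK 1 and SIANK 2. In the map of peaks, this H3K27ac NC 1 peak reaches 171 bp to either side of the core's centre, and the H3K23ac NC 1 peak around it reaches 1872 bp to one side and 261 bp to the other.

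**Figure D4:**
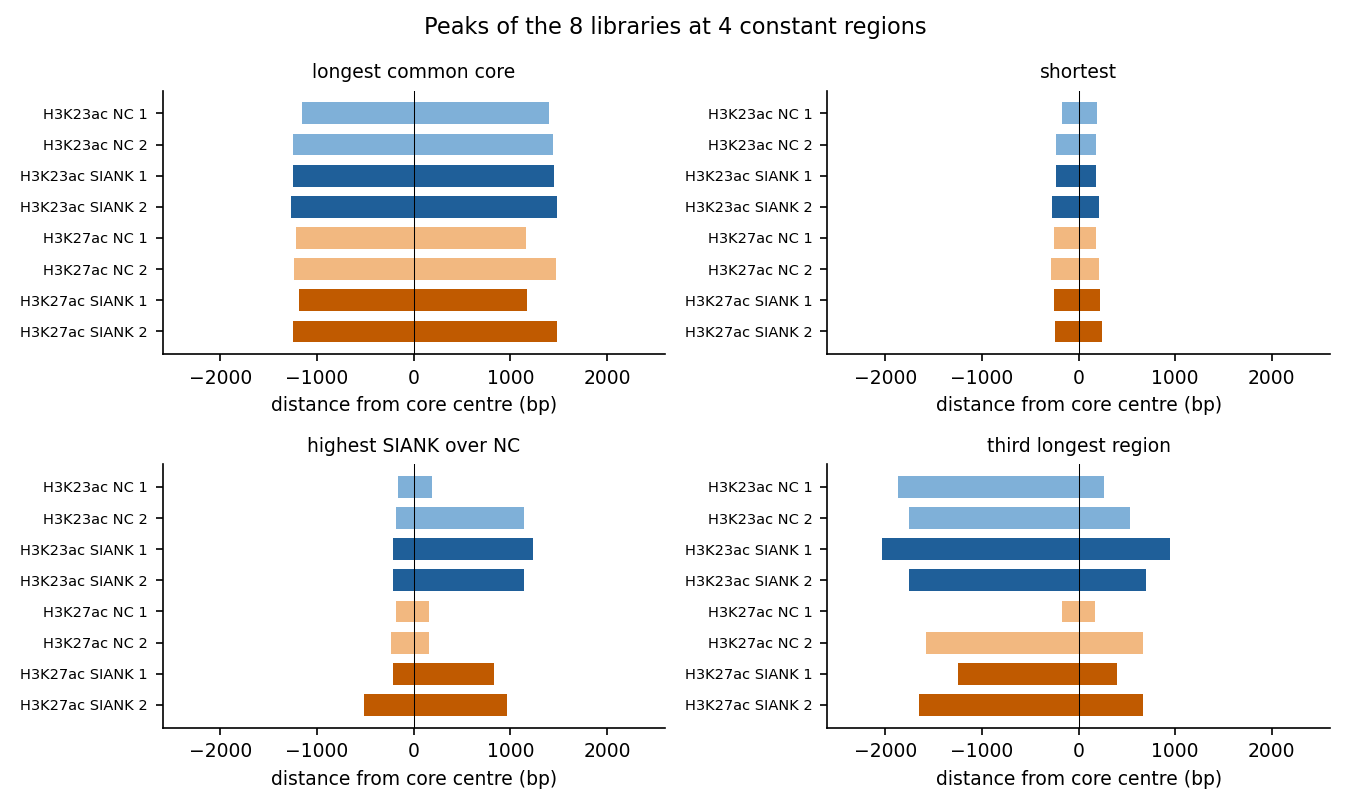
Peaks of the 8 libraries (rows) at 4 of the regions, as distance in base pairs from the centre of the common core (x axis): the region with the longest core, the shortest region, the region with the highest SIANK over NC ratio among those that separated in both marks, and the third longest region. Bars end at similar distances in the top panels, while cover in the bottom panels ranges from 347 to 1474 bp (left) and from 343 to 2979 bp (right).

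Regions called in every library could still differ in extent between SIANK and NC. The rule did not compare SIANK with NC, but it required a peak in every library and capped the region's length. That demand fell unevenly on H3K27ac, where NC 1 alone lacked a peak at 1052 regions and SIANK 1 alone at 33. The differences below hold only for regions that passed the rule. H3K23ac cover was longer in both SIANK libraries than in both NC libraries on average. The geometric mean of covered length was 1058 bp (NC 1), 1023 bp (NC 2), 1104 bp (SIANK 1) and 1427 bp (SIANK 2), which averaged 1041 ± 24.7 bp for NC against 1266 ± 228 bp for SIANK (SD, n = 2 libraries each). For H3K27ac it was 678 bp (NC 1), 1223 bp (NC 2), 908 bp (SIANK 1) and 1263 bp (SIANK 2), which averaged 950.5 ± 386 bp against 1086 ± 251 bp (SD, n = 2 libraries each). The H3K23ac groups did not overlap, with SIANK 2 standing above the other 3 libraries, and the H3K27ac groups did.

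With 2 libraries against 2, neither difference could pass a threshold of 0.05. The log2 difference was 0.27 for H3K23ac (SE 0.19, 1.21-fold, exact two-sided permutation p = 0.333) and 0.23 for H3K27ac (SE 0.49, 1.18-fold, exact two-sided permutation p = 0.667), where 0.333 is the smallest p possible. Over both marks it was 0.25 (SE 0.26, exact permutation within marks, p = 0.222), and the marks differed in it by 0.04 (SE 0.52, exact permutation p = 0.833); the smallest p is 0.0556 for both. The H3K23ac difference was 0.09 without SIANK 2 and 0.46 without SIANK 1. The H3K27ac difference turned to -0.19 without NC 1 and was -0.0034 without SIANK 2, 0.47 without SIANK 1 and 0.66 without NC 2.

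Within a replicate number, each mark moved in 1 pair of libraries and hardly in the other. For H3K23ac the SIANK library had the longer cover at 56.9% of regions in number 1 (log2 difference 0.06) and at 89.6% in number 2 (0.48). For H3K27ac it was the reverse, with 86.3% in number 1 (0.42) and 56.4% in number 2 (0.05). Peak length in the whole lists also differed between NC and SIANK. Its median was 711 and 691 bp in H3K23ac number 1 and 765 and 830 bp in number 2. For H3K27ac it was 607.5 and 684 bp in number 1 and 790 and 782 bp in number 2. These shares were not computed over all regions with the mark, so whether they are particular to the set was not tested.

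Region by region, the share with longer H3K23ac in SIANK was near that of all regions always called for the mark. Both SIANK libraries were longer than both NC libraries at 543 of the 1428 regions (38.0%), where the same was true of 37.8% of the 7396 merged regions with H3K23ac in all 4 libraries. Both were shorter at 19 regions (1.33%), against 1.92% of the 7396. For H3K27ac, both were longer at 186 regions (13.0%) against 14.0% of 2216, and shorter at 21 (1.47%) against 1.49%. Both marks were longer at 62 regions (4.34%) against 4.08% of the 1840 with all 8 peaks, and both shorter at 0 against 0.00%. At 10 of the 1428 regions the marks went opposite ways, and the share of such regions among the 1840 was not computed. The other shares lie near those of the larger sets, of which these regions are a part. With each library's longest peak ranked within its own list in place of covered length, the longer and shorter counts became 399 and 90 for H3K23ac, 180 and 72 for H3K27ac, and 49 and 7 for both marks, so that the shorter counts depend on the scale. Leaving out 1 library raised the counts by construction: for H3K23ac the higher count reached 1097 without SIANK 1 and the lower count 386 without SIANK 2. For H3K27ac the higher count reached 1133 without NC 2 and the lower count 519 without NC 1. The lower counts moved by more than 1.5 times with any 1 library of their mark left out. So did the higher count of H3K27ac without SIANK 1 (754) and without SIANK 2 (297), while that of H3K23ac did so only without SIANK 1. The 62 regions became 447 without H3K27ac NC 2, 284 without H3K27ac SIANK 1, 130 without H3K23ac SIANK 1, 111 without H3K27ac SIANK 2 and 105 without H3K23ac NC 1. None of these alternative counts was taken over all regions with the mark, so whether they are particular to the set was not tested.

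**Figure D5:**
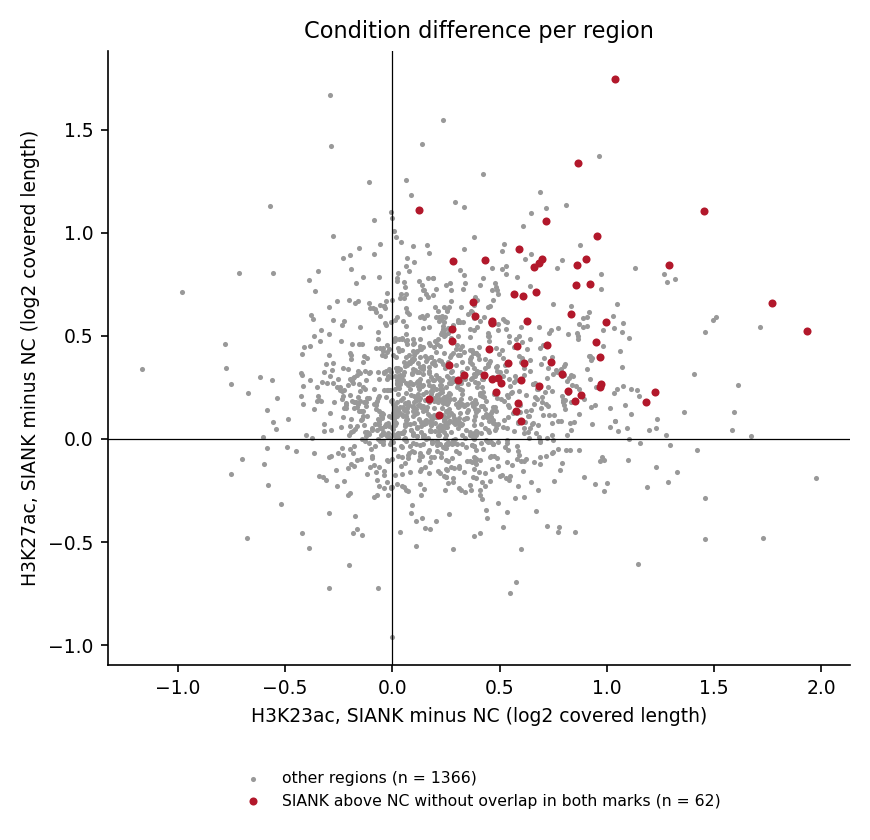
SIANK minus NC difference in mean log2 covered length for H3K23ac (x axis) and H3K27ac (y axis), one point per region. The 62 red points are regions where both SIANK libraries exceeded both NC libraries in both marks, and all other regions are grey.

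Of these 62 regions, the one with the highest mean difference lay on chromosome 3 from 147042591 to 147044340. Its H3K23ac cover was 351 bp in NC 1 but 1333 bp in NC 2, just below the 1449 bp of SIANK 1 and the 1359 bp of SIANK 2. H3K27ac separated the groups further, with NC libraries at 347 and 393 bp against SIANK libraries at 1045 and 1474 bp, 3.36-fold longer by geometric means. The next, on chromosome 18 from 71557242 to 71559347, had H3K23ac cover of 613 bp (NC 1), 785 bp (NC 2), 2032 bp (SIANK 1) and 1776 bp (SIANK 2), a 2.74-fold difference. The H3K27ac cover was 540 bp (NC 1), 1509 bp (NC 2), 1893 bp (SIANK 1) and 2002 bp (SIANK 2), a 2.16-fold difference. Here both NC libraries of H3K23ac lay far below SIANK, while for H3K27ac NC 2 came close to it.

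The third, on chromosome 1 from 243370311 to 243373019, had the highest H3K23ac ratio of the top 5, 3.82-fold, with NC libraries at 367 and 845 bp against SIANK libraries at 2195 and 2059 bp. The step in H3K27ac was smaller, 1.44-fold, from 1129 and 1054 bp (NC) to 1579 and 1560 bp (SIANK). On chromosome 5 from 152505964 to 152507353, H3K23ac cover was 416 and 384 bp for NC against 1369 and 1359 bp for SIANK, and H3K27ac cover 881 and 409 bp against 885 and 1015 bp, where NC 1 and SIANK 1 were nearly equal. The last of the top 5, on chromosome 2 from 84275687 to 84277650, had H3K23ac cover of 1370 and 430 bp for NC against 1412 and 1388 bp for SIANK, so that NC 1 lay close to SIANK. Its H3K27ac cover was 344 and 1042 bp for NC against 1521 and 1513 bp for SIANK, 2.53-fold longer. These 5 were ranked by the difference itself, so their values are a description without a test.

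H4K5ac lay far from most of these regions. The nearest H4K5ac peak of any library was a median of 259 kb away, and 258 kb for all other merged regions without H4K5ac. It was within 10 kb at 42 regions (2.94%), against 4.25% of those others, and over 1 Mb away at 231 (16.2%), against 15.7%. The closest was 617 bp from the region on chromosome 18 from 27656067 to 27659033, and the next 1201 bp from the region on chromosome 18 from 3565096 to 3566879. The farthest, 16.1 Mb, was from a region on chromosome X from 128493803 to 128494846. Its H3K23ac cover was 555, 743, 763 and 1015 bp and its H3K27ac cover 857, 912, 800 and 734 bp in NC 1, NC 2, SIANK 1 and SIANK 2, so that H3K27ac was the longer mark in all libraries but SIANK 2.

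Constant regions with and without H4K5ac differed little in mean H3 cover, but the merged regions were longer without it. Their median length was 1715.5 bp, against 1539 bp in the 159 regions under 3000 bp that had all 8 H3 peaks and an H4K5ac peak. Compared with those 159, mean log2 cover differed by -0.019 (SE 0.02, 8 libraries), lower in 5 and higher in 3 of the 8. By library the difference ran from -0.12 (H3K23ac NC 2) to 0.04 (H3K27ac SIANK 1). The exact two-sided permutation test, flipping signs over the 8 libraries, gave p = 0.383. Limited to regions with 1 peak in each library the difference was -0.052 (exact permutation p = 0.0469), and with medians in place of means it was 0.0026. All 8 libraries cover the same regions, so these p-values leave out the spread between regions. They do not test whether the 2 sets of regions differ. The common core had a median of 556 bp in those 159 regions, against 480 bp without H4K5ac.

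Peaks were longer in these regions than in regions with H3K27ac in the number 2 libraries only. A set of 3339 regions under 3000 bp had all 4 H3K23ac peaks, H3K27ac in NC 2 and SIANK 2 but not in NC 1 or SIANK 1, and no H4K5ac. In the 6 libraries with peaks in both sets, mean log2 cover was higher in the constant regions by 0.28 to 0.37, with a mean of 0.32 (1.25-fold), and by 0.33 in the 4 H3K23ac libraries alone. The sets were split by peak presence in the 2 shorter H3K27ac lists and set side by side after the values had been seen, so these differences are a description of the choice, without a test.

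The regions were spread over the genome, and most had no other region of the set within 50 kb. They occurred on chromosomes 1 to 20 and X, from 161 on chromosome 1 to 15 on X. None was on Y, which held only 5 merged regions. Their share of the merged regions was 8.54% on chromosome 18, 7.30% on chromosome 9 and 4.40% on X, around 6.12% over all chromosomes. The nearest other merged region was a median of 12.7 kb away, against 8.20 kb over all merged regions, and 18.3% had none within 50 kb, against 15.6%. This was not particular to the set, since constant regions under 3000 bp with H4K5ac had 14.0 kb and 18.2%. Regions with H3K27ac in number 2 only had 9.22 kb and 14.8%, and constant regions of 3000 bp or more without H4K5ac had 2.83 kb and 3.96%. The nearest other region of the set was a median of 266 kb away, and 229 regions (16.0%) had one within 50 kb. These distances were not compared with those of regions placed at random.

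Runs of neighbours were short. Joining regions of the set within 50 kb of each other left 1199 alone and gave 95 pairs, 10 runs of 3, and 1 run each of 4 and 5. The run of 5 spanned chromosome 10 from 55595729 to 55710248 (115 kb), with 17 merged regions in it. The run of 4 lay on chromosome 9 from 61632724 to 61721214 (88.5 kb), where 4 of the 6 merged regions belonged to the set. These runs were named after their values were seen.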

How the data were processed

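Peak lists of 12 CUT&Tag libraries were used, 1 per library. The authors deposited positions and lengths in base pairs, per the file headers; length equals end minus start plus 1, so positions count from 1. BWA and deepTools appear in the submitters' processing notes, with neither role nor version. How peaks were called, against which control and on which build is not given in the sources used here. Deeper sequencing or a looser calling threshold can lengthen peaks, as can wider marking. Peaks reached beyond the last GRCr8 gene on 15 chromosomes, so no gene names, promoters or sequences were used.

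Groups and replicate numbers came from sample titles. The regions, lists and comparisons were chosen with earlier results of these data known. Covered length per region and library was averaged as log2 over regions, and libraries were permuted exactly (threshold 0.05). Regions were named by fixed rules: longest, shortest, longest core, least variable, highest and lowest SIANK over NC where both marks separate the groups (no region was lower), nearest to and farthest from H4K5ac, and nearest the 3000 bp limit. The text gives some of each. Merging and the region rule were checked on simulated lists. The label permutation was checked on random values with 4 libraries against 4, and the sign flips were not checked. Python 3.11.15, pandas 2.3.3, numpy 2.4.6 and matplotlib 3.10.9 were used.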

Additional observations from a re-analysis of the deposited data

How the results depend on the processing

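Depth is unknown, so a missing peak may be a missed one. The number of regions was 1428 as reported, 499 with the upper 50% of each list by length, 204 with the 8 H3 lists cut to equal length, 950 with a limit of 2000 bp, and 1448 to 2481 with 1 library left out. For merging within 1000 bp, at least 25% cover per library, no length limit, and no H4K5ac within 10000 bp it was 1296, 1122, 1655 and 1386. The SIANK minus NC log2 difference ran from -0.19 to 0.66 for H3K27ac without 1 library (-0.19 without NC 1, -0.0034 without SIANK 2), and the difference between the marks from -0.39 to 0.46 (-0.39 without H3K27ac NC 2, -0.20 without H3K27ac SIANK 1, -0.15 without H3K23ac SIANK 2). With the replicate block the differences were 0.27, 0.23 and 0.25 for H3K23ac, H3K27ac and both, and 0.04 between marks. The exact sign-flip permutation gave p = 0.500, 0.500, 0.125 and 0.750, where 0.500, 0.500 and 0.125 are the smallest possible. The design could give no p below 0.05 here, so no call could change. Deviations of same-numbered libraries correlated over regions at 0.65 for H3K27ac and -0.05 for H3K23ac. The labels do not say that a number marks a shared culture, so the number is not taken as pairing. Against regions with H4K5ac the difference was 0.0026 for medians. For regions with 1 peak per library it was -0.052 (exact permutation over libraries, not over regions, p = 0.0469). Against regions with H3K27ac in number 2 only the difference ran from 0.31 to 0.33 without 1 library, as a description. By within-library percentile, regions lower in SIANK numbered 90 for H3K23ac, 72 for H3K27ac and 7 for both. Without 1 library, higher and lower counts were 612 to 1097 and 34 to 386 for H3K23ac, 243 to 1133 and 57 to 519 for H3K27ac, and 70 to 447 and 0 to 6 for both; fewer libraries separate more easily by construction. Shares over all regions with the mark were not computed for these counts. The alternatives for these counts, for the core and for the number 2 comparison were added after the data had been seen. For the SIANK minus NC differences only the direction could change, since none of them could pass 0.05. In all, 103 of 145 alternative values had the reported direction and call, or a count within 1.5 times the reported one. The cause of the other changes was not tested.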
